A study of Saccharomyces cerevisiae with 58 samples.

Results

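The genes described here build, link and decorate the polymers of the yeast cell wall: FKS1 and GSC2 (glucan synthases), GAS1 and GAS5 (glucan remodelling), CRH1 and UTR2 (links between chitin and glucan), CHS1 and CHS3 (chitin synthases), MNN1 (mannan) and SVS1 (a wall protein). They are 10 of 5449 genes measured, chosen by name with earlier results of these data known. Each has 1 probe set on the array. Their RNA was followed in 2 cultures of a B-cyclin mutant of budding yeast (15 arrays each) and 2 wild-type cultures (14 arrays each), every array being a single time of a single culture. Both strains are MATa in the BF264-15DU background. In the mutant, CLB1 is disrupted with URA3, CLB2 with LEU2, CLB3 with TRP1, CLB4 with HIS2, CLB5 with ARG4 and CLB6 with APE1, and the strain also carries GAL1-CLB1, a construct that galactose induces, marked with LEU2. The wild-type strain carries bar1. Early G1 cells of both strains were collected by elutriation, which separates cells by size, and grown in dextrose medium with sorbitol. Mutant culture 2 and wild-type culture 1 were sampled from 30 to 254 min, and mutant culture 1 and wild-type culture 2 from 38 to 262 min, every 16 min apart from 1 missing time in each wild-type culture.

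The wall of budding yeast is a mesh of beta-glucan made at the plasma membrane, a small amount of chitin concentrated at the bud neck and septum, and an outer layer of mannoproteins whose sugar chains are built in the Golgi. New wall is laid down mainly at the growing bud, and many wall genes are transcribed with the cell cycle, a large group of them around bud emergence under the transcription factor SBF. B-type cyclins bind the kinase Cdc28 and drive DNA replication, mitosis and the end of polarised bud growth, and cells without them keep making buds. The comparison of the strains addresses how much of cell cycle transcription continues without these cyclins.

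Signals are given as log2(intensity + 1), so a difference of 1 is a doubling. Mean intensity per array lay between 2067 and 2121, and the arrays thus shared a scale as deposited. All 10 genes were above the background level of 9.06, the 95th percentile of 1746 probe sets for genes outside the yeast annotation, on 58 of 58 arrays. CLB2, CLB3 and CLB4 were below it on 30 of 30 mutant arrays, whereas the CLB1 probe set read 11.11 to 11.98 in the mutant, CLB5 10.36 to 11.90 and CLB6 9.24 to 10.64, above background on every mutant array. Of the a-cell markers, MFA1, MFA2, STE2, STE6 and AGA2 were above background on all arrays, and BAR1 was above it on 30 of 30 mutant and 0 of 28 wild-type arrays. Of the alpha-cell markers, SAG1 was above background on all arrays as well, and MF(ALPHA)2 on 29 of 30 mutant and 26 of 28 wild-type arrays. MF(ALPHA)1 was above it on 0 of 30 and 9 of 28, and STE3 on 0 of 30 and 0 of 28. After 142 min, 17.7% of all 5449 genes were called higher in the mutant and 12.8% lower (limma on the 4 culture means, adjusted p under 0.05). In that part the a-cell list had 5 of 6 genes called lower in the mutant and 1, BAR1, higher (median -1.72). The mitotic landmarks had 3 of 3 lower (median -1.52), the M/G1 landmarks 3 of 4 lower (median -1.87) and the G1/S landmarks 2 of 3 higher (median 0.99). The part of these shifts in the results below was not tested. The earliest arrays stood apart: successive arrays had correlations of 0.976 to 0.999 within a culture once both were taken at 62 min or later, and of 0.899 to 0.983 where a pair began before that. Each array averages a whole culture, so more cells in a stage and more RNA per cell cannot be told apart. The number of cultures, 2 per strain, limits the precision of every comparison.

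In both strains FKS1, GAS1, CRH1, UTR2, SVS1, MNN1 and CHS3 started low and climbed to a first peak between 70 and 118 min. In the wild type they then dipped and recovered. In the mutant most dipped less, and several went on to climb past their first peak. After 142 min, the mutant had 7 of the 10 genes higher and 1 lower, where 17.7% of all 5449 genes were higher and 12.8% lower (limma on the 4 culture means, adjusted p under 0.05). The median difference of the 10 genes was 0.43 after 142 min, against 0.02 over all genes. As the genes were chosen with earlier results of these data known, such contrasts with all genes are descriptions only. Up to 142 min, 0 of the 10 passed (limma), where 0.863% of all genes did (0.312% higher and 0.551% lower). At an unadjusted p under 0.05 there were 2 of the 10, and 599 of all 5449 genes. The median difference of that part was 0.11 against 0.01 over all genes. The late count rested on both wild-type cultures: without either one, GSC2, CRH1 and SVS1 were the 3 genes still called.

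Averaged over the whole course, the mutant means of SVS1, GSC2 and CRH1 exceeded those of the wild type by 0.86, 0.78 and 0.59. That makes 3 of 10 called higher and 0 lower, where 5.69% of all genes were higher and 5.07% lower (10.8% in all). When the 56 arrays at shared times were fitted with culture as a random block, GSC2 alone of these 3 was still called (adjusted p = 0.129 for SVS1 and 0.371 for CRH1). CRH1 was also lost without wild-type culture 1 (0.47, adjusted p = 0.0616) and with the sampling grid as a block (adjusted p = 0.0504). In what follows, pairs of values from a strain give culture 1 and then culture 2, and peaks and troughs are read from single arrays, with no test.

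**Figure D1:**
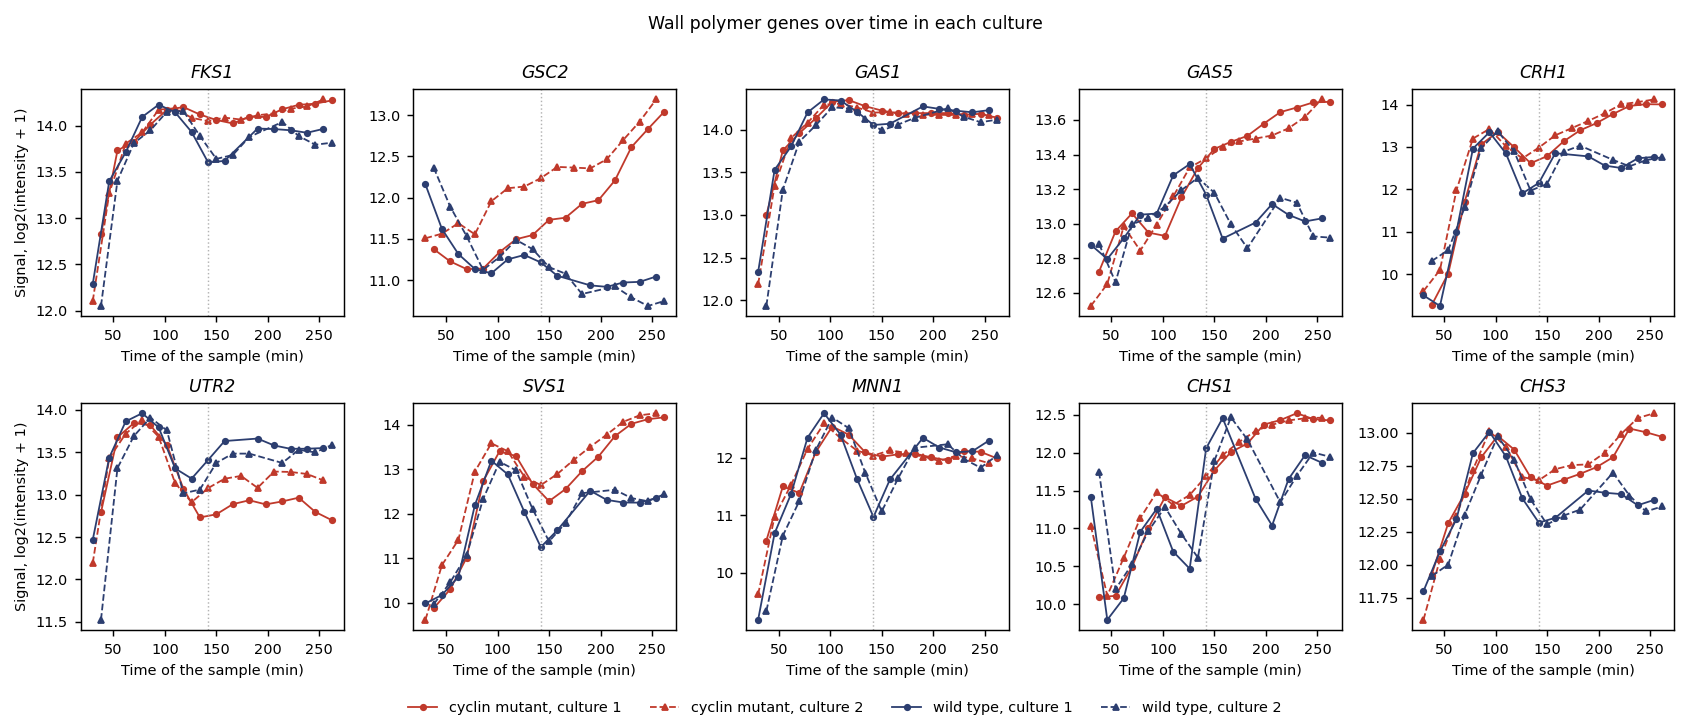
Signal of the 10 genes, log2(intensity + 1) on each vertical axis with its own range, against the time of the sample in minutes, for the mutant cultures (red) and the wild-type cultures (blue). The first peaks of SVS1, CRH1, MNN1 and CHS3 coincide between the strains, after which GSC2, SVS1 and CRH1 climb in the mutant to 13.19, 14.26 and 14.12 at their highest.

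FKS1 and GSC2 encode alternative catalytic subunits of the synthase that makes beta-glucan, the main load-bearing polymer. FKS1 serves vegetative growth, and GSC2 is known for induction under wall stress and when glucose runs low. GSC2 showed the largest difference of the 10 genes after 142 min. Its signal on the 15 mutant arrays of that part was 11.73 at the lowest, 12.37 at the median and 13.19 at the highest, against 10.68, 10.93 and 11.16 on the 13 wild-type arrays. Every mutant array was above every wild-type array. The culture means were 12.30 and 12.67 in the mutant, against 10.98 and 10.89 in the wild type, a difference of 1.55 ± 0.14 (SE, n = 2 cultures per strain), or 2.93-fold (limma, adjusted p = 0.00081).

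The GSC2 courses ran in opposite directions. In the mutant the signal was 11.37 and 11.51 on the first arrays and 13.04 and 13.19 on the last. In the wild type it was 12.16 and 12.36 on the first arrays and 11.04 and 10.75 on the last. At 38 min the mutant was 0.99 below the wild type, from 78 min it was above at each matched time, and at 262 min it was 2.30 above, a 4.92-fold difference. The culture pairs reached this at different times: at 134 min the pair sampled from 38 min differed by 0.17, and at 142 min the pair sampled from 30 min differed by 1.02. The mutant cultures differed from each other as well, with means of 11.32 and 11.84 up to 142 min. The change of the strain difference between the parts was called, at 1.45 ± 0.12 (adjusted p = 0.0034), where 17.1% of all genes changed in that direction and 6 of the 10 did.

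FKS1 differed little beside GSC2. Its mutant arrays after 142 min spanned 14.02 to 14.28 with a median of 14.13, against 13.62 to 14.04 with a median of 13.89 in the wild type. Of the 15 mutant arrays 14 were above all wild-type arrays. The difference was 0.30 ± 0.09 (adjusted p = 0.042), or 1.23-fold. It was no longer called without wild-type culture 1 (0.34, adjusted p = 0.236), without wild-type culture 2 (0.26, adjusted p = 0.342) or with the parts divided at 158 min (0.28, adjusted p = 0.0635). From its first peak to the following trough FKS1 fell by 0.18 and 0.14 in the mutant and by 0.62 and 0.52 in the wild type.

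GAS1 and GAS5 encode glucanosyltransferases anchored at the cell surface, which cut and rejoin beta-glucan chains and so lengthen them. GAS1 passed in none of the comparisons of level. After 142 min its arrays lay at 14.14 to 14.23 in the mutant, against 13.99 to 14.28 in the wild type, with medians of 14.19 and 14.15. The mutant range lay inside that of the wild type, and the difference was 0.02 ± 0.09 (adjusted p = 0.855). Its main movement was the climb from the first array to the first peak, of 1.35 and 2.12 in the mutant, against 2.03 and 2.33 in the wild type.

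GAS5 parted between the strains late. After 142 min the mutant arrays spanned 13.43 to 13.72 with a median of 13.55, against 12.86 to 13.18 with a median of 13.01 in the wild type. No mutant array overlapped the wild type. The difference was 0.55 ± 0.08 (adjusted p = 0.0054), or 1.47-fold, and up to 142 min it was -0.04 ± 0.08. The change between the parts was called (0.59 ± 0.08, adjusted p = 0.0066). In the mutant the highest GAS5 array was the last, with 13.70 at 262 min and 13.72 at 254 min. In the wild type GAS5 peaked at 126 and 134 min, later than the genes above, and fell by 0.43 and 0.41. Without either wild-type culture the late difference stayed at 0.55 and was not called (adjusted p = 0.0877 without culture 1 and 0.0859 without culture 2), and the change was not called without wild-type culture 2 (0.62, adjusted p = 0.0621).

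CRH1 and UTR2 encode related transglycosylases that join chitin to glucan. After 142 min they differed between the strains in opposite directions. CRH1 spanned 9.27 to 14.12 in the mutant, against 9.25 to 13.37 in the wild type over the whole course. Its first peak was alike, at 13.35 and 13.42 in the mutant, against 13.35 and 13.37 in the wild type. It then fell by 0.74 and 0.70 in the mutant and by 1.44 and 1.40 in the wild type. The later rise from the trough was 1.39 in both mutant cultures, against 0.95 and 1.06 in the wild-type cultures. The later mutant maximum was 0.66 and 0.70 above the first peak, while the later wild-type maximum minus the first peak was -0.49 and -0.34.

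After 142 min CRH1 read 12.78 to 14.12 on the mutant arrays with a median of 13.78, against 12.13 to 13.03 with a median of 12.73 in the wild type. Of the 15 mutant arrays 14 were above the wild-type range. The difference was 1.01 ± 0.11 (adjusted p = 0.0016), or 2.01-fold, and the change between the parts was 0.80 ± 0.13 (adjusted p = 0.011). The change was not called without wild-type culture 2 (0.62, adjusted p = 0.0616).

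UTR2 was the 1 gene of the 10 called lower in the mutant. After 142 min it read 12.70 to 13.27 with a median of 12.96 in the mutant, against 13.37 to 13.66 with a median of 13.54 in the wild type. All 15 mutant arrays were below all wild-type arrays. The difference was -0.50 ± 0.13 (adjusted p = 0.033). Without wild-type culture 1 it was -0.45 (adjusted p = 0.222) and without culture 2 it was -0.56 (adjusted p = 0.141).

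UTR2 also peaked before the other genes with an early peak, at 70 and 78 min in the mutant and 78 and 86 min in the wild type. The heights were 13.84 and 13.88 in the mutant, against 13.96 and 13.91 in the wild type. UTR2 then fell by 1.11 and 0.97 in the mutant and by 0.77 and 0.89 in the wild type, and the later rise was 0.23 and 0.36 in the mutant against 0.47 and 0.57 in the wild type. The change of the strain difference between the parts was -0.50 ± 0.16 and not called (adjusted p = 0.0612), and without mutant culture 2 it was -0.73 (adjusted p = 0.0028).

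**Figure D2:**
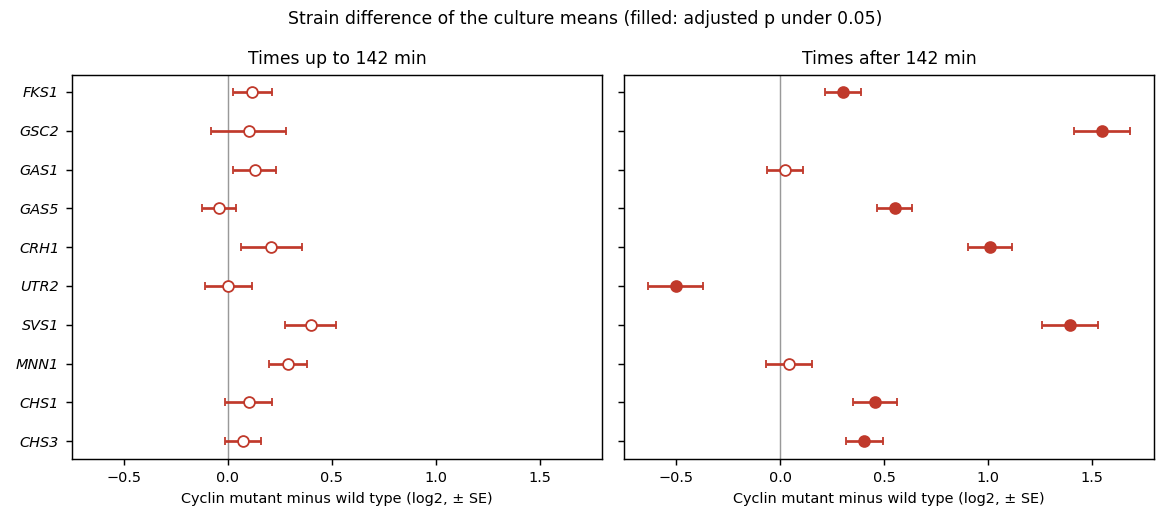
Difference between the strains, cyclin mutant minus wild type in log2 units, for each of the 10 genes over the times up to 142 min (left) and after 142 min (right). Points are differences of culture means (n = 2 per strain) with their limma SE, and filled points passed an adjusted p under 0.05. GSC2, SVS1 and CRH1 reach 1.55, 1.40 and 1.01 on the right, UTR2 lies at -0.50, and no point is filled on the left.

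CHS1 and CHS3 encode chitin synthases. CHS3 makes most of the chitin of the wall, including the ring at the base of the bud, and CHS1 is known for repair of the wall when mother and daughter separate. CHS1 had a course of its own. In the mutant it climbed without a late pulse, to 12.52 at 230 min in culture 1 and 12.46 at 254 min in culture 2. In the wild type it reached 12.46 at 158 min in culture 1 and 12.47 at 166 min in culture 2, dropped to 11.04 at 206 min and 11.34 at 214 min, and came back to 11.97 at 238 min and 12.00 at 246 min. The mutant was below the wild type at the 5 matched times from 142 to 182 min, by up to 0.49, and above it at each matched time from 190 min on, by up to 1.33 at 206 min.

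Averaged over the times after 142 min, the CHS1 mean of the mutant exceeded that of the wild type by 0.46 ± 0.10 (adjusted p = 0.021), with arrays of 11.77 to 12.52 in the mutant, against 11.04 to 12.47 in the wild type. The array ranges overlapped, and the mutant was higher at 9 of 13 matched times, so this mean covers differences of both signs. Without wild-type culture 1 it was 0.36 (adjusted p = 0.229) and without culture 2 it was 0.56 (adjusted p = 0.0863). The change between the parts was 0.36 ± 0.10 (adjusted p = 0.048). It was not called without the arrays before 62 min (0.15, adjusted p = 0.321), and at 38 min the mutant was 1.66 below the wild type. It was not called either without wild-type culture 1 (0.28), wild-type culture 2 (0.43) or mutant culture 1 (0.26).

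CHS3 peaked early and dipped in both strains. Its first peak was 12.98 and 13.01 in the mutant, against 13.01 and 12.97 in the wild type, and it then fell by 0.38 and 0.37 in the mutant and by 0.69 and 0.67 in the wild type. After 142 min the arrays lay at 12.60 to 13.15 in the mutant, against 12.30 to 12.70 in the wild type, with medians of 12.81 and 12.45. Of the 15 mutant arrays 12 were above the wild-type range. The difference was 0.41 ± 0.09 (adjusted p = 0.019), or 1.32-fold. It was not called without wild-type culture 1 (0.42, adjusted p = 0.170) or culture 2 (0.39, adjusted p = 0.191). The change between the parts was 0.33 ± 0.10 (adjusted p = 0.049), and it was not called without wild-type culture 1 (0.35), wild-type culture 2 (0.32) or mutant culture 2 (0.23).

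SVS1 encodes a serine- and threonine-rich wall protein needed for growth with vanadate, and MNN1 the Golgi enzyme that adds the terminal mannose to the side chains of mannoproteins. Their first peaks fell on the same arrays, and their courses separated in the mutant after that. SVS1 fell by 1.12 and 0.94 in the mutant and by 1.94 and 1.79 in the wild type. It came back by 1.88 and 1.61 in the mutant, to 14.17 and 14.26 on the last arrays, and by 1.27 and 1.16 in the wild type, to 12.52 and 12.54. The later maximum minus the first peak was 0.76 and 0.68 in the mutant, against -0.67 and -0.63 in the wild type.

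After 142 min SVS1 read 12.28 to 14.26 with a median of 13.75 in the mutant, against 11.38 to 12.54 with a median of 12.31 in the wild type. Of the 15 mutant arrays 14 were above the wild-type range. The difference was 1.40 ± 0.14 (adjusted p = 0.0012), or 2.63-fold. Up to 142 min it was 0.40 ± 0.12, the largest of the 10 in that part, and did not pass (adjusted p = 0.349). The change between the parts was 1.00 ± 0.11 (adjusted p = 0.0046).

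MNN1 showed a second pulse in the wild type and not in the mutant. In the mutant it peaked at 12.54 and 12.59, fell by 0.54 and 0.65 and came back by 0.11 and 0.09. In the wild type it peaked at 12.77 and 12.70, dropped to 10.97 at 142 min and 11.07 at 150 min, and came back by 1.37 and 1.17. After 142 min the mutant arrays stayed within 11.90 to 12.13, inside the wild-type range of 11.07 to 12.34, with medians of 12.02 and 12.09. The mean difference of that part was 0.04 ± 0.11 (adjusted p = 0.782). At 142 min the mutant stood 1.07 above the wild type, and at 150 min 0.95 above.

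**Figure D3:**
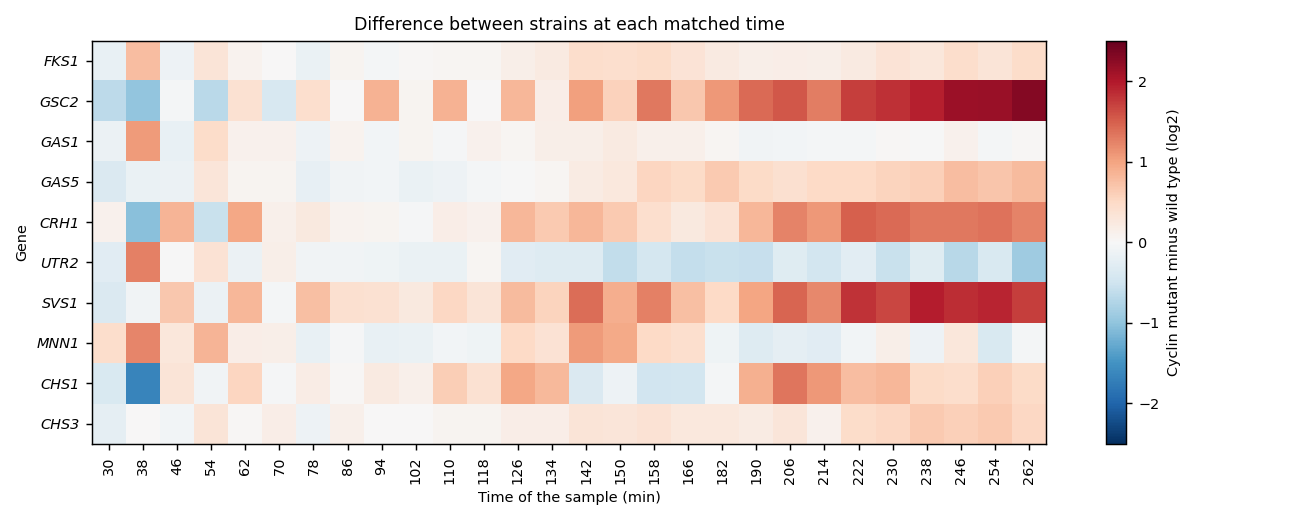
Difference between the strains, cyclin mutant minus wild type in log2 units (colour), at each of the 28 times that a culture of each strain shares, for the 10 genes from top to bottom. Neighbouring columns alternate between the culture pairs. GSC2 reaches 2.30 at 262 min, UTR2 stays below 0 from 126 min, and CHS1 is above 0 from 190 min.

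Some of the genes shared the timing of their early peak between the strains. For SVS1, MNN1, CHS3 and CRH1 the highest array between 62 and 142 min fell at 102 min in the cultures sampled from 38 min and at 94 min in those sampled from 30 min, in both strains. The G1 cyclin gene CLN2 and the ribonucleotide reductase gene RNR1, both landmarks of G1/S, had their highest arrays of that window at the same times. In the cultures sampled from 30 min, GAS1 and FKS1 peaked at 110 min in the mutant, against 94 min in the wild type, and UTR2 at 78 min in both. In those sampled from 38 min, GAS1 peaked at 118 min against 102 min, UTR2 at 70 min against 86 min, and FKS1 at 118 min in both. Shifts shorter than the interval between arrays cannot be seen. The troughs of CRH1 and SVS1 lay within 126 to 150 min in all 4 cultures. In wild-type culture 2 the highest arrays of CHS1 and of SIC1, an inhibitor of the Clb-bound kinase and a landmark of M/G1, were both at 166 min. The highest SIC1 arrays read 10.94 and 11.02 in the mutant, against 11.57 and 11.40 in the wild type. After 142 min SIC1 differed between the strains by 0.23 and was not called (adjusted p = 0.0991). The other M/G1 landmarks EGT2, ASH1 and PIR1 had mutant means below those of the wild type, by 2.48, 2.32 and 1.43.

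A cosine was fitted at the period of each strain, 135 min in the mutant and 103 min in the wild type. The periods were chosen on the 26 measured genes of a list of 28 replication genes of G1/S. Chosen per culture, they were 141 and 136 min in the mutant and 96 and 99 min in the wild type. The sampled times did not cover a second full period of the mutant. The fit called 3 of the 10 genes periodic in the mutant, against 7 in the wild type, where 7.40% and 11.6% of all genes were called (limma F-test, adjusted p under 0.05 and at least 1.5-fold). SVS1, CRH1 and UTR2 were called in both strains. SVS1 had a fitted peak-to-trough difference of 1.48 ± 0.27 in the mutant, against 1.71 ± 0.26 in the wild type (log2, SE), CRH1 of 1.23 ± 0.36 and 1.75 ± 0.34, and UTR2 of 0.76 ± 0.16 and 0.88 ± 0.19. MNN1 (0.70 ± 0.26 in the mutant, against 1.59 ± 0.27 in the wild type), FKS1 (0.46 and 0.76), GAS1 (0.43 and 0.74) and CHS3 (0.52 and 0.59) were called in the wild type and not in the mutant. CHS3 passed the test in the mutant (adjusted p = 0.00082) and missed the size limit. The difference in periodicity between the strains was not tested as such. CHS1 was called in neither strain, with 0.04 in the mutant, against 0.39 in the wild type.

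Fewer genes were called periodic with fewer arrays. Without the arrays before 62 min the count was 1 in the mutant (SVS1) and 3 in the wild type (CRH1, SVS1 and MNN1). In the wild type FKS1, GAS1, UTR2 and CHS3 then still passed the F-test at an adjusted p under 0.05. Their fitted differences of 0.38, 0.29, 0.46 and 0.41 were under the size limit of 0.585. In the mutant UTR2 was likewise lost on size (0.56, adjusted p = 0.00039), and CRH1 missed both limits (0.49, adjusted p = 0.0523). Without mutant culture 1 the mutant count was 0, and without mutant culture 2 it was 1. Without wild-type culture 1 the wild-type count was 3, and without wild-type culture 2 it was 0, as it then was over all genes. Arrays of a culture were treated as independent in these fits, so their p-values can be too small.

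The size of change over time was taken as log2 of the SD of a culture after a linear trend was removed. It differed between the strains for 0 of the 10 genes (limma, adjusted p under 0.05), where 0.147% of all genes passed. At an unadjusted p under 0.05 there was 1 of the 10, and 518 of all 5449 genes. The difference was negative for each of the 10, with a median of -0.36 against -0.02 over all genes, but with the trend kept it was positive for 6 of them, among them GAS5 (1.19). The largest was that of CHS1 (-1.19 ± 0.27, adjusted p = 0.318). A strain by time interaction was called for 9 of the 10, GAS1 being the exception, in a test that called 73.7% of all genes. Arrays of a culture were treated as independent in this test too, so its p-values can be too small. GAS1 was called as well without wild-type culture 1 (adjusted p = 1.2e-08) and without the arrays before 62 min (adjusted p = 0.0012). FKS1 was lost without mutant culture 1 (adjusted p = 0.342) or mutant culture 2 (adjusted p = 0.237), and UTR2 without mutant culture 1 (adjusted p = 0.339).

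The 10 genes were set beside lists of other wall genes, grouped by polymer and also chosen with earlier results of these data known. Of all genes, 30.4% were called in either direction after 142 min. In the mutant, 7 of 24 further glucan genes were higher and 2 lower, with a median of 0.21. GAS2, a relative of GAS1 known from spore wall formation, was higher by 2.11. Of 6 markers of meiotic or sporulating cells, SPO11, SPS2, SPR3 and DIT1 were below background on all arrays, IME1 was above it on all, and SPO13 was above it on 6 of 30 mutant and 22 of 28 wild-type arrays, and their part in this difference was not tested. EXG2, an exoglucanase, was higher by 0.79. SKN1, a homologue of the glucan synthesis protein Kre6, was lower in the mutant by 1.97, with a mutant mean of 8.83, below background. Of 16 chitin genes 4 were higher and 2 lower, with a median of 0.02. The chitinase gene CTS1, which acts in cell separation, was lower in the mutant by 1.56, and CHS2, the chitin synthase of the primary septum, by 1.26. QRI1, which acts in making the sugar nucleotide that chitin synthases use, was higher by 0.74.

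Among 31 genes of mannosyltransferases and of mannose donor supply 5 were higher and 2 lower, with a median of -0.02, and the largest differences were those of the mannan genes KTR2 (0.79), MNN4 (0.54) and OCH1 (0.53). Of 14 measured genes of cell integrity signalling, the pathway that senses wall stress and feeds the kinase Slt2, 3 were higher and 2 lower, with a median of 0.06. SLT2 was higher by 1.67 ± 0.09 (adjusted p = 0.00017), and up to 142 min it differed by 0.07. ROM1, an activator of Rho1, was higher by 0.87 with a wild-type mean of 8.83, below background. The wall sensor gene WSC3 was lower in the mutant by 0.62.

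**Figure D4:**
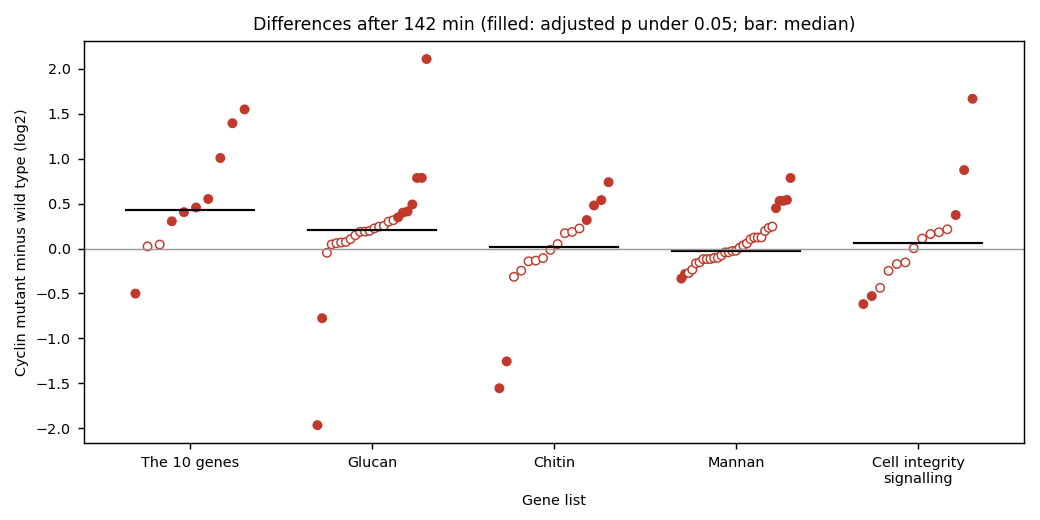
Difference after 142 min, cyclin mutant minus wild type in log2 units, for the 10 genes and for the further genes of glucan (24), chitin (16), mannan (31) and cell integrity signalling (14). Each point is a gene, filled where the adjusted p is under 0.05, and the bar is the median of the list. The median of the 10 genes is 0.43, and those of the other lists lie between -0.02 and 0.21.

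The courses were also compared by Pearson correlations over the 58 arrays after the mean of each culture was subtracted. Arrays of a culture form a time series and share the early climb, and these values are descriptions only. Among the 10 genes FKS1 and GAS1 were most alike (0.97), followed by CRH1 and SVS1 (0.95). FKS1 and GSC2 correlated at 0.53 over the 30 mutant arrays and -0.76 over the 28 wild-type arrays. GSC2 and GAS5 correlated at 0.89 in the mutant, against -0.28 in the wild type. Among 4855 other genes above background, those most like SVS1 were AXL2 (0.97), whose product acts in bud site selection, CSI2 (0.97) and PRY2 (0.96). PRY2 (0.97) and CSI2 (0.95) were also nearest to CRH1. ZDS2 (0.94) and AXL2 (0.94) were nearest to CHS3, and SIC1 (0.90) was nearest to CHS1. GSC2 was most like HIS5 (0.92), GAS5 like AIM45 (0.91), UTR2 like GPI18 (0.89), MNN1 like GOT1 (0.94), GAS1 like ELO3 (0.98) and FKS1, after GAS1, like ILV2 (0.96).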

How the data were processed

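Biotin-labelled RNA was hybridised to Affymetrix yeast arrays, 1 colour per array. The deposited table gives an intensity on a linear scale for each probe set. The submitters' processing notes name affy 1.8.1. The authors' background correction, summary and scaling are not given in the sources used here. Here log2(intensity + 1) was taken, 10928 probe sets were named through the platform's gene table and the yeast gene table, and the brightest probe set per gene was kept, giving 5449 genes.

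The replicate was the culture (2 biological replicates per strain, per the series design). Culture means over the times shared by both strains were compared with limma 3.58.1 in R 4.3.3 for the whole course, up to 142 min, after 142 min and for the change between these parts. Periodicity and the strain by time interaction (splines of 8 df) were limma F-tests over arrays. P-values were adjusted by Benjamini-Hochberg over all genes and called under 0.05. The fits were run on simulated data, with noise drawn independently for each array and the period given. Such data cannot show how dependence between successive arrays or the choice of the period affects the p-values. The genes named were all 10 members, genes from among the 3 most correlated with each, and up to 3 called genes per pathway list, by size. Members and lists were chosen with earlier results of these data known. Alternatives covered the pseudocount (64), scaling, dim genes, probe sets, left-out cultures, early arrays, blocks, the boundary and the model terms. Promoter motifs were not analysed here.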

Additional observations from a re-analysis of the deposited data

Results flagged for a closer look

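For 6 of the 10 genes the strain difference after 142 min was not the same as that up to 142 min, by a test of the change itself (limma on culture means, mutant minus wild type, adjusted p under 0.05), where 31.2% of all genes passed in either direction. The change was 1.45 for GSC2 (adjusted p = 0.0034), 1.00 for SVS1 (adjusted p = 0.0046), 0.80 for CRH1 (adjusted p = 0.011) and 0.59 for GAS5 (adjusted p = 0.0066). It was 0.36 for CHS1 (adjusted p = 0.048) and 0.33 for CHS3 (adjusted p = 0.049), both near the threshold. In all 6 the change was positive, towards higher signal in the mutant.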

How the results depend on the processing

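The pseudocount, the probe set rule and the use of all 58 arrays changed no count of the 10 genes by over 1.5 times. Leaving out a culture gave 289 to 1594 genes called over the whole course (2 to 5 of the 10), 9 to 268 up to 142 min, 374 to 2976 after 142 min (3 to 8 of the 10), 144 to 2123 for the change (2 to 6 of the 10, GSC2 and SVS1 being left without wild-type culture 2), 26 to 158 periodic in the mutant (0 to 1 of the 10), 0 to 115 periodic in the wild type (0 to 3 of the 10) and 0 to 1 for dynamic range. Up to 142 min, 76 genes were called without arrays before 62 min, 21 with the sampling grid as a block, 31 with the boundary at 126 min and 80 at 158 min. Over the whole course the random block called 1294 genes, and 1 of the 10. Without arrays before 62 min 277 genes were periodic in the wild type, with 3 of the 10, and 1 of the 10 in the mutant. Dropping the linear term gave 237 in the mutant, where CHS3 was then called (0.69, adjusted p = 0.0022), and lost UTR2 in the wild type (adjusted p = 0.0531). The mean of the periods per culture gave 407 in the wild type and lost GAS1 (adjusted p = 0.0606) and CHS3 (0.58, under the size limit). The interaction was called for 7 to 10 of the 10 without a culture, and for 10 without arrays before 62 min. Dynamic range called 21 genes after quantile normalization, 2 above background only and 142 with the trend kept. The changes of CHS1 and CHS3 were lost after quantile normalization (adjusted p = 0.0569 and 0.0748), with the grid as a block (0.0532 and 0.0722) and at 126 min (0.0958 and 0.0550), the late difference of FKS1 was lost with the grid as a block (0.0716), and the change of MNN1 was called at 158 min (-0.42, adjusted p = 0.0233).

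The deviations of same-numbered cultures from their strain means correlated at -0.056, so the numbers were not taken as pairs. With the replicate block 25 genes were called up to 142 min, 1786 after it and 0 for dynamic range. FKS1 was then lost after 142 min (0.30, adjusted p = 0.0576), and UTR2 was called for the change (-0.50, adjusted p = 0.0118).

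Sign changes occurred in values that did not pass. Up to 142 min, UTR2 ranged from -0.12 (without wild-type culture 2) to 0.13 (without wild-type culture 1) over the left-out cultures, GSC2 from -0.16 (without mutant culture 2) to 0.36 and CHS1 from -0.034 (without mutant culture 2) to 0.23. UTR2 was -0.13 without the early arrays. After 142 min GAS1 ranged from -0.023 to 0.070 and MNN1 from -0.084 to 0.17, both lowest without wild-type culture 2. Dynamic range lay between -0.30 and 0.12 for CRH1 (highest without wild-type culture 1) and between -0.52 and 0.081 for UTR2 (highest without wild-type culture 2), and it was 0.17 for both GSC2 and UTR2 without the early arrays. At 158 min GAS5 was 0.0078 and UTR2 -0.062 in the earlier part, and GAS1 was -0.0060 and MNN1 -0.080 in the later. With the trend kept dynamic range was 0.53 for GSC2, 1.19 for GAS5, 0.39 for CRH1, 0.52 for SVS1, 0.14 for CHS1 and 0.30 for CHS3. The cause of these shifts was not tested.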
